A study of Mus musculus with 6 samples.

Results

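The Cyp2c cytochromes are liver enzymes of the cytochrome P450 superfamily. The 10 members described here, Cyp2c29, Cyp2c37, Cyp2c38, Cyp2c39, Cyp2c40, Cyp2c44, Cyp2c50, Cyp2c54, Cyp2c69 and Cyp2c70, were taken by name from the 55385 genes of the count table. Gene identifiers were matched to symbols of GENCODE M21, where Cyp2c44 carries the symbol Cyp2c23. That annotation names 18 Cyp2c genes, so 8 further genes of the family are described only where they bear on the members.

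Poly(A) RNA was sequenced from the livers of 6 wild-type C57BL/6 male mice, 1 library per mouse. All mice were 6 to 8 weeks old at the start, received a high-fat diet (HFD) for 10 weeks, then underwent vertical sleeve gastrectomy (VSG, removal of most of the stomach) or a sham operation, and stayed on HFD for 12 more weeks. The 3 sham libraries are numbered 1 to 3 and the 3 VSG libraries 4 to 6, and the comparison asks which Cyp2c transcripts differed in the liver between the operations. HFD feeding was thus common to both groups, no lean or unoperated mice were among these libraries, and the tissue was whole liver.

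P450 enzymes sit in the endoplasmic reticulum, bind a haem group and insert oxygen into lipophilic substrates with electrons passed on by P450 oxidoreductase. The Cyp2c enzymes handle drugs and also fatty acids, in particular arachidonic acid, which several of them turn into epoxides. The mouse family is known as an array of duplicated genes whose members depend to different degrees on xenobiotic-sensing nuclear receptors, on the growth hormone pattern that differs between the sexes, and on the position of the hepatocyte in the lobule. Human and mouse families expanded separately, so that single mouse genes have no one-to-one human partner.

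In GRCm38 (mm10), 9 of the members lay together on chromosome 19, from the start of Cyp2c29 (chr19:39269405-39330713, plus strand) to the end of Cyp2c70 (chr19:40153353-40187333, minus strand). Cyp2c44 lay apart from them (chr19:44005022-44029208, minus strand). All 10 are annotated as protein-coding. Similarity between copies bears on the counts, because a read that fits several genes cannot be placed, and how such reads were treated is not given in the sources used here. Cyp2c44 and Cyp2c70 were the most distinct members, with 66.9% and 69.8% coding identity to their nearest relative and 0% of 50-base windows of their transcripts present in another gene. Cyp2c38 and Cyp2c39 were 94.2% identical to each other in the coding sequence, yet only 7.45% and 12.0% of their 50-base windows, and 0% of their 100-base windows, occurred in another transcript. For Cyp2c37, Cyp2c50 and Cyp2c54 the shared 50-base windows made up 30.1%, 30.7% and 25.7%. Cyp2c40 and Cyp2c69 were the least separable, with 72.1% and 54.8% of 50-base windows shared, with each other and with the non-members Cyp2c67 and Cyp2c68. Cyp2c29 shared 2.08% of its windows, and 142 exon bases of it overlap the pseudogene Cyp2c53-ps on the same strand.

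Promoters are shown for the 2 tested members with the lowest and the tested member with the highest fold change in edgeR with all 6 libraries. The former fell together and the latter had the opposite sign. The sequences are the 250 bases before the RefSeq start site in GRCm38.p6, written 5′ to 3′ on the gene's strand, with capitals for the HNF4 motif CAAAGTCCA. They lie at chr19:39463076-39463325 (minus strand) for Cyp2c38, chr19:39510572-39510821 (plus strand) for Cyp2c39 and chr19:40187287-40187536 (minus strand) for Cyp2c70.
Cyp2c38: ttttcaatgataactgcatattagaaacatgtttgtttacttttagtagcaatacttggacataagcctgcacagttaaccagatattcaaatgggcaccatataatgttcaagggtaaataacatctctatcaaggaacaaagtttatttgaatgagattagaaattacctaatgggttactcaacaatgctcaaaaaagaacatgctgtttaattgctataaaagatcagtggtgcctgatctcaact
Cyp2c39: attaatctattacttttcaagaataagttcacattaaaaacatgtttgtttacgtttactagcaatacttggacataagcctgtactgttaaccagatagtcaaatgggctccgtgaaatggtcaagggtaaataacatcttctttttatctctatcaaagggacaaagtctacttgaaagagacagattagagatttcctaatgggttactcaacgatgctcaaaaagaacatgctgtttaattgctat
Cyp2c70: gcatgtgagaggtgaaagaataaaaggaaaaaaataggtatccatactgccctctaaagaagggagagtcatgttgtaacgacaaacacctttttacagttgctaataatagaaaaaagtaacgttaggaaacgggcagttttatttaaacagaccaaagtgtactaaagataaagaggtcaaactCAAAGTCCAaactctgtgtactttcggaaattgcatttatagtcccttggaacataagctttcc
Over the 300-base RefSeq windows, which add 50 bases after the start site, Cyp2c38 and Cyp2c39 were 72.6% identical, whereas Cyp2c70 was 48.0% and 47.1% identical to them. Cyp2c29, which did not pass the test, came close to that pair, with 70.8% identity to Cyp2c38 and 69.0% to Cyp2c39. Other member pairs were more alike, namely Cyp2c37 and Cyp2c50 (86.6%), neither of them called, and Cyp2c40 and Cyp2c69 (80.9%), neither of them tested. Cyp2c70 was close to no other Cyp2c window, with at most 49.6%, to Cyp2c50. The 3 motifs below were searched on both strands in all 32851 mouse promoter windows of this length. The motif CAAAGTCCA, bound by the hepatocyte receptor HNF4, was found in 0.475% of all windows and in 3 of the 8 members with an entry, Cyp2c40, Cyp2c69 and Cyp2c70, at -45, -75 and -64 bases from the start. The C/EBP motif TTNNGCAA was found in 10.8% of all windows and in Cyp2c37, Cyp2c40 and Cyp2c69. The STAT motif TTCNNNGAA was found in 8.30% of all windows and in 0 of the 8. In Cyp2c40 and Cyp2c69 the HNF4 and C/EBP matches stood at the same spacing, and no match overlapped another. The windows of Cyp2c38 and Cyp2c39 held none of the 3 motifs as spelled. The motifs were searched as spelled, a match is only a match of letters, and related copies share ancestry, so their matches are not separate observations.

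The libraries held between 22804397 and 24191778 counts. After a filter on low counts 14454 genes were tested, with p-values adjusted over all of them (edgeR quasi-likelihood test, Benjamini-Hochberg). Levels are CPM, counts scaled to the library size after TMM correction. Of the 10 members, 8 passed the filter and 2 did not (Cyp2c40 and Cyp2c69). At an adjusted p under 0.05, 2 members fell after VSG, Cyp2c38 and Cyp2c39, and 0 rose; 3 members had an unadjusted p under 0.05, and DESeq2 called those 2 and also Cyp2c70 as higher. Over all tested genes 14.7% were called, 7.87% as lower and 6.79% as higher. The 3 sham and the 3 VSG libraries did not overlap for 3 of the 8 tested members, with Cyp2c38 and Cyp2c39 lower and Cyp2c70 higher after VSG. Of all tested genes, 19.8% did not overlap as lower and 19.8% as higher. Lack of overlap in either direction was thus about as common over all tested genes as among the members. The median log2 fold change was -0.76 over the 8 tested members and 0.03 over all tested genes, with 5 members below 0 and 3 above. In whole liver, fewer cells of a type and less RNA per cell cannot be told apart.

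**Figure D1:**
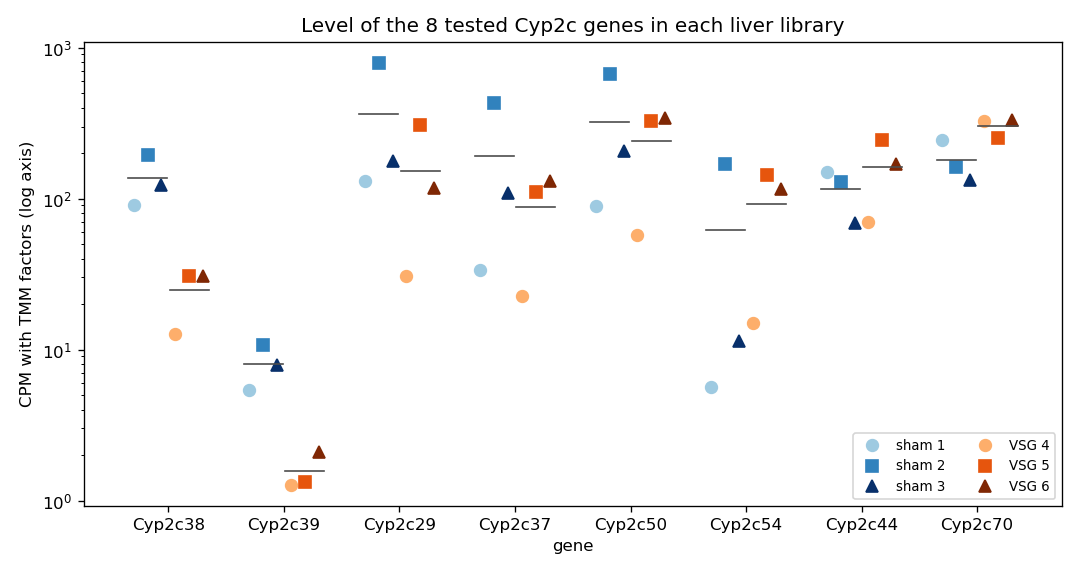
Level of the 8 tested Cyp2c members in each library, in CPM of TMM-scaled libraries on a log axis. Each point is 1 mouse, blue for sham and orange to brown for VSG, and bars mark group means. Cyp2c38 and Cyp2c39 lie lower in all 3 VSG libraries, Cyp2c70 lies higher, and Cyp2c29, Cyp2c37, Cyp2c50 and Cyp2c54 spread widely within each group.

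Cyp2c38, an epoxygenase of arachidonic acid, showed the largest fall among the tested members with all 6 libraries. It was only narrowly ahead of Cyp2c39 (log2 fold change -2.35), and their intervals overlapped. Its level in sham 1, 2 and 3 was 90.0, 196 and 123 CPM, from 2437, 4285 and 3237 counts. In VSG 4, 5 and 6 it was 12.7, 30.5 and 30.7 CPM, from 280, 713 and 644 counts. The highest VSG library thus stayed below the lowest sham library, and the means were 136 ± 54.1 and 24.6 ± 10.4 CPM (SD, n = 3 each). The log2 fold change was -2.47 (SE 0.423, 95% interval -3.47 to -1.46), which is 5.53-fold lower, with an adjusted p of 0.0178 in edgeR. The call was lost without sham 3 (adjusted p 0.0775) and without VSG 6 (adjusted p 0.0687), although the log2 fold change was -2.54 and -2.66 in those fits.

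Cyp2c39, known as a retinoic acid hydroxylase as well as an epoxygenase, is the neighbour of Cyp2c38 (chr19:39510862-39568529 against chr19:39389556-39463075, on opposite strands). Cyp2c39 was much less abundant, with 5.43, 10.6 and 7.94 CPM in the sham libraries from 147, 233 and 209 counts. After VSG it stood at 1.27, 1.33 and 2.10 CPM from 28, 31 and 44 counts. No VSG library reached the lowest sham library. Cyp2c39 fell by 2.35 on the log2 scale (SE 0.327, 95% interval -3.13 to -1.57, adjusted p 0.0112 in edgeR), from a mean of 8.00 ± 2.61 to 1.56 ± 0.464 CPM (SD, n = 3 each). Without sham 3 the adjusted p was 0.0578, and in the other 12 alternatives Cyp2c39 was still called.

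Counts of Cyp2c39 per count of Cyp2c38 were 0.0603, 0.0544 and 0.0646 in sham and 0.10, 0.0435 and 0.0683 after VSG (exact permutation test, two-sided p = 0.7, adjusted p = 0.817 over 7 ratios). The groups overlapped and the VSG ratios spread more widely than the sham ratios, and with 3 against 3 libraries this test cannot go below 0.1. Per kilobase of transcript the pair differed widely in level, since Cyp2c38 averaged 47.5 FPKM (CPM per kilobase of exon) in sham and 8.58 FPKM after VSG, while Cyp2c39 averaged 4.41 and 0.861 FPKM.

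**Figure D2:**
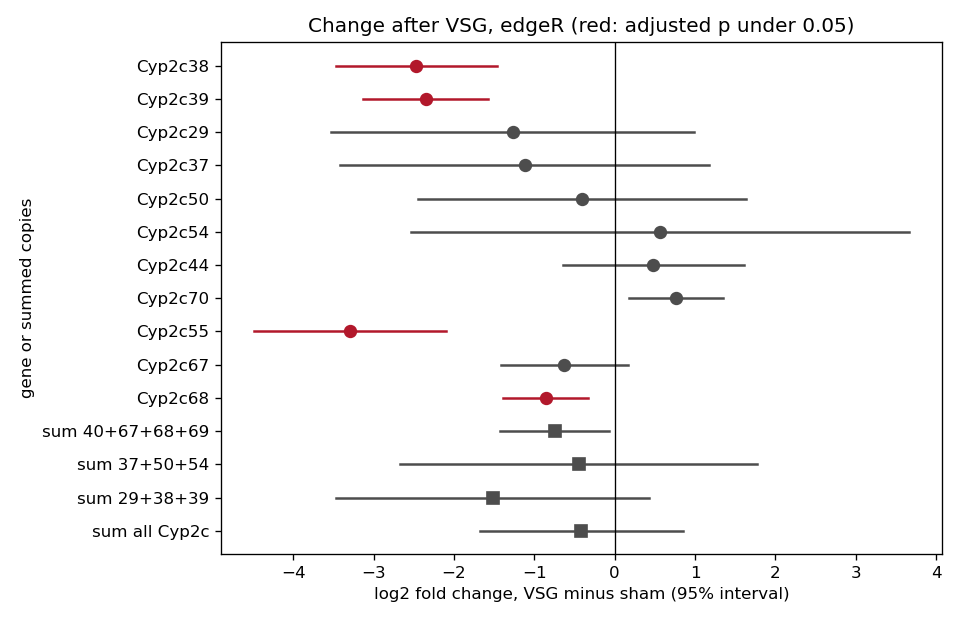
Log2 fold change of VSG minus sham with its 95% interval for the 8 tested members (circles, top), 3 other tested Cyp2c genes (circles) and sums over near-identical copies (squares). Red marks an adjusted p under 0.05 in edgeR, reached by Cyp2c38, Cyp2c39, Cyp2c55 and Cyp2c68. The intervals of Cyp2c29, Cyp2c37, Cyp2c50 and Cyp2c54 cross 0 and are far wider than those of Cyp2c38, Cyp2c39 and Cyp2c70.

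Cyp2c29, Cyp2c37, Cyp2c50 and Cyp2c54, which all act on arachidonic acid, did not pass the test, and the spread between mice of 1 group exceeded the difference between groups. Cyp2c29 (chr19:39269405-39330713) is the member best known for induction by phenobarbital through the receptor CAR. It stood at 131, 785 and 178 CPM in sham and at 30.7, 306 and 118 CPM after VSG. Sham 2 was high and VSG 4 low, and the groups overlapped. The log2 fold change was -1.27 (SE 0.949, 95% interval -3.52 to 0.99, adjusted p 0.377 in edgeR). Without sham 2 the value was -0.03, and without VSG 5 it was -2.31, so that a single library decided its size.

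Cyp2c37 (chr19:39992424-40012243) was at 33.6, 431 and 109 CPM in sham and 22.7, 111 and 131 CPM after VSG. Its close copy Cyp2c50 (chr19:40089688-40113950) was at 89.8, 669 and 208 CPM in sham and 57.7, 327 and 342 CPM after VSG. Both genes were highest in sham 2 and lowest in VSG 4. Their log2 fold changes were -1.12 (95% interval -3.41 to 1.18, adjusted p 0.441) and -0.41 (95% interval -2.45 to 1.63, adjusted p 0.759), both in edgeR. Without sham 2 both signs turned, to 0.30 for Cyp2c37 and 0.70 for Cyp2c50.

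Cyp2c54 (chr19:40037940-40073827), which lies between Cyp2c37 and Cyp2c50 on the opposite strand, had the widest spread of the tested members in sham. There it was at 5.69, 168 and 11.5 CPM, a 29.6-fold range within the group. After VSG it was at 15, 143 and 116 CPM, a 9.54-fold range, close to the 9.95-fold range of Cyp2c29. Sham 2, VSG 5 and VSG 6 were high, and sham 1, sham 3 and VSG 4 were low, a split that does not follow the operation. The log2 fold change was 0.57 (SE 1.30, 95% interval -2.53 to 3.67, adjusted p 0.780 in edgeR), and without sham 2 it was 3.41 with an adjusted p of 0.10.

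Within this triplet of near-identical copies, Cyp2c54 took a different part in each library. Counts of Cyp2c54 per count of Cyp2c50 were 0.0633, 0.252 and 0.0552 in sham and 0.260, 0.438 and 0.340 after VSG, so that the groups did not overlap (exact permutation test, two-sided p = 0.1, the lowest this design allows, adjusted p = 0.350 over 7 ratios). Counts of Cyp2c37 per count of Cyp2c50 were 0.374, 0.644 and 0.525 in sham and 0.393, 0.339 and 0.382 after VSG, and overlapped (p = 0.3 in the same exact test). A sum over the 3 copies is not moved by how reads were split among them, but would not restore reads that were dropped. Summed, the level was 129, 1268 and 328 CPM in sham and 95.5, 581 and 589 CPM after VSG. The log2 fold change of that sum was -0.45 (SE 0.933, 95% interval -2.67 to 1.77, adjusted p 0.759 in edgeR), and without sham 2 it turned to 0.88.

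**Figure D3:**
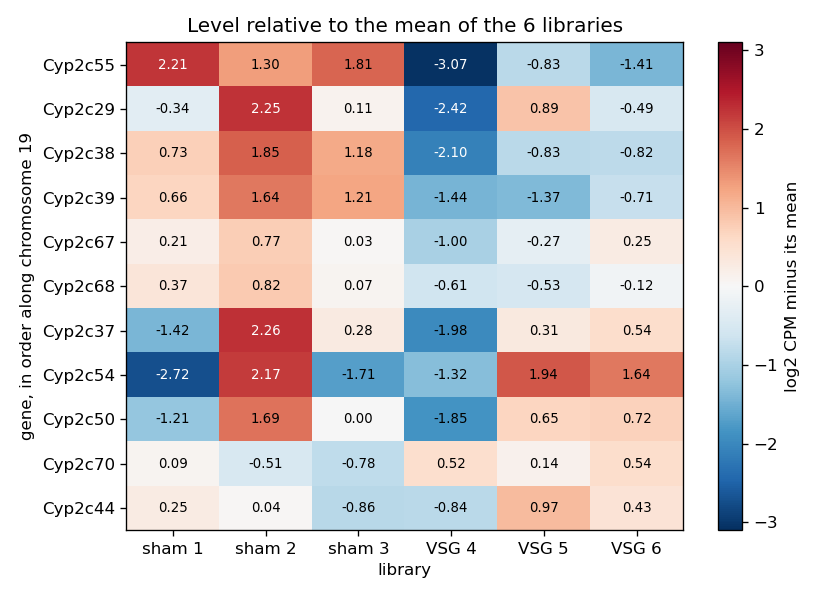
Level of each tested Cyp2c gene in each library as log2 CPM minus the mean of the gene over the 6 libraries, with genes in order along chromosome 19. Red is above and blue below the mean. Cyp2c55, Cyp2c38 and Cyp2c39 are red in all 3 sham libraries and blue in all 3 VSG libraries, while Cyp2c37, Cyp2c54 and Cyp2c50 are highest in sham 2 and low in sham 1 and VSG 4.

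The summed level of 12 pericentral hepatocyte genes, which mark the zone around the central vein, was 7252, 17700 and 10698 CPM in sham and 5595, 12820 and 12548 CPM after VSG. This places the libraries in the same order as Cyp2c50 within sham, while within VSG the order of VSG 5 and VSG 6 was reversed. Cyp2e1, a P450 of the pericentral zone, gave most of that sum, with 4458, 12850 and 7502 CPM against 3804, 9838 and 8934 CPM. Not every gene of the list had this order, since Axin2 (12.6, 6.35 and 8.78 CPM) and Tbx3 (35.3, 28.1 and 29.8 CPM) were lowest in sham 2 among the sham libraries. Of those 12 genes 0 rose and 1 fell (Lect2, log2 fold change -1.17, adjusted p 0.0269 in edgeR, called in 9 of 13 alternatives), while Glul, the glutamine synthetase of the innermost hepatocytes, did not pass (-0.63, adjusted p 0.237). The receptor CAR (Nr1i3), a known activator of Cyp2c29, was likewise highest in sham 2 and lowest in VSG 4, with 181, 686 and 389 CPM against 44.3, 256 and 238 CPM (log2 fold change -1.22, adjusted p 0.265). Whether these values have a part in the spread of Cyp2c29, Cyp2c37, Cyp2c50 and Cyp2c54 was not tested.

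Cyp2c70, the enzyme that makes muricholic acids, the bile acids typical of mice, was the tested member with the highest log2 fold change in edgeR with all 6 libraries. Without sham 2, Cyp2c54 was higher (3.41), whereas Cyp2c70 reached at most 1.04 over the alternatives. Its level was 244, 161 and 133 CPM in sham, from 6600, 3527 and 3502 counts, and 329, 252 and 332 CPM after VSG, from 7263, 5897 and 6950 counts. All 3 VSG libraries were above all 3 sham libraries, though VSG 5 exceeded sham 1 only narrowly. The log2 fold change was 0.76 (SE 0.246, 95% interval 0.18 to 1.35), or 1.70-fold, with p 0.0180 and an adjusted p of 0.0816 in edgeR, which misses the threshold. It was called in 2 of 13 alternatives, DESeq2 (adjusted p 0.0289) and edgeR without sham 1 (0.0383), and in the others the adjusted p reached 0.230, without sham 3. Cyp2c70 varied least within the groups, with a range of 1.83-fold in sham and 1.32-fold after VSG.

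Of 13 genes of bile acid synthesis tested beside Cyp2c70, 0 rose and 2 fell, with a median log2 fold change of -0.25. Those that fell were Akr1d1, which reduces the sterol ring (-1.47, adjusted p 0.0341), and Cyp2a12, a bile acid hydroxylase (-1.0, adjusted p 0.0325), both in edgeR, and each was called in 9 of 13 alternatives (adjusted p up to 0.112 and 0.120, without sham 3). Cyp7a1, the rate-limiting enzyme of the pathway, was at 208, 462 and 162 CPM in sham and 29.2, 121 and 115 CPM after VSG, and did not pass in edgeR (-1.65, adjusted p 0.110) but did in DESeq2 (adjusted p 0.0191). Cyp8b1, which makes cholic acid, was at 142, 553 and 270 CPM against 17.6, 128 and 60.3 CPM, and did not pass either (-2.23, adjusted p 0.0952), though it was called in 2 of 13 alternatives (adjusted p 0.0443 with no filter and 0.0444 without VSG 5). For Cyp7a1 and Cyp8b1 all VSG libraries were below all sham libraries. Other genes of the list had values above 0, among them Cyp7b1, a hydroxylase of the alternative pathway, with 28.4, 70.7 and 30.5 CPM in sham and 45.1, 183 and 300 CPM after VSG (2.03, adjusted p 0.0923).

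Cyp2c44, an epoxygenase that lies outside the main array, did not pass the test. It was at 149, 129 and 68.8 CPM in sham and 69.9, 245 and 168 CPM after VSG, with VSG 4 inside the sham range and the other VSG libraries above it. The log2 fold change was 0.48 (SE 0.473, 95% interval -0.65 to 1.60, adjusted p 0.501 in edgeR). Over the 13 alternatives its log2 fold change ran from 0.03 to 0.84, and it was called in 0 of them.

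Cyp2c40 and Cyp2c69, known as genes with higher levels in female liver, were counted almost only in sham 2. Cyp2c40 (chr19:39767071-39812814) was counted 1, 70 and 4 times in sham and 2, 0 and 4 times after VSG. Cyp2c69 (chr19:39842814-39886799) was counted 1, 71 and 0 times in sham and 0, 1 and 1 times after VSG. Apart from sham 2, 5 libraries held at most 4 counts of either gene, and a count of 0 allows a level of up to 0.128 CPM in VSG 5 (3 counts, counting error only). No fold change is given, since neither gene passed the filter. The 2 genes share much of their sequence with each other, so their counts in sham 2 are not separate observations.

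Their closest relatives Cyp2c67 and Cyp2c68 were well counted. Cyp2c68 was at 85.7, 118 and 69.9 CPM in sham and 43.4, 46.0 and 61.1 CPM after VSG, and fell (log2 fold change -0.86, SE 0.222, adjusted p 0.0469 in edgeR), but the loss of any single library ended the call (adjusted p 0.0746 to 0.110). Cyp2c67 was at 92.4, 136 and 81.5 CPM against 39.8, 66.2 and 94.6 CPM and did not pass (-0.63, adjusted p 0.230). Summed, Cyp2c40, Cyp2c67, Cyp2c68 and Cyp2c69 gave 178, 260 and 152 CPM in sham and 83.3, 112 and 156 CPM after VSG, with a log2 fold change of -0.75 (SE 0.285, 95% interval -1.42 to -0.07) and an adjusted p of 0.119 in edgeR. With scaling by total counts the sum passed (-0.87, adjusted p 0.0430).

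Cyp2c55, a relative near the start of the array (chr19:39007019-39042693), fell with Cyp2c38 and Cyp2c39 at a far lower level. It was at 3.51, 1.87 and 2.66 CPM in sham and 0.0905, 0.427 and 0.286 CPM after VSG (log2 fold change -3.29, SE 0.504, adjusted p 0.0142 in edgeR). VSG 4 held 2 counts of it, which is below the floor of 3 counts, and the call was lost without sham 3 (adjusted p 0.0699) and without VSG 6 (adjusted p 0.0677). The remaining 5 Cyp2c genes, Cyp2c65, Cyp2c66, Cyp2c52-ps, Cyp2c53-ps and Cyp2c73-ps, held at most 7 counts in any library, too few for the test.

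Set beside the other copies of its group, the fall of Cyp2c38 and Cyp2c39 was diluted by Cyp2c29. The sum of Cyp2c29, Cyp2c38 and Cyp2c39 was 226, 991 and 309 CPM in sham and 44.7, 337 and 150 CPM after VSG, with a log2 fold change of -1.52 (SE 0.818, 95% interval -3.46 to 0.43, adjusted p 0.235 in edgeR). All 18 Cyp2c genes together gave 930, 2811 and 993 CPM against 622, 1528 and 1396 CPM, a log2 fold change of -0.42 (SE 0.531, 95% interval -1.68 to 0.85, adjusted p 0.603). The total thus overlapped between the groups, with sham 2 high and VSG 4 low, and it turned to 0.29 without sham 2.

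**Figure D4:**
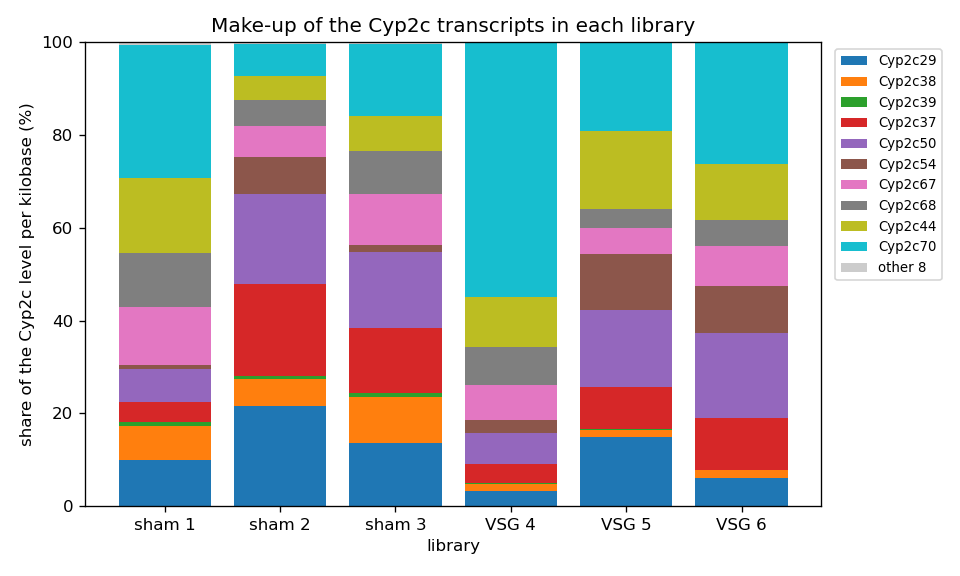
Share of each Cyp2c gene in the summed Cyp2c level per kilobase of deposited exon length, in percent, for each library. Cyp2c38 (orange) shrinks from between 5.77% and 9.95% in sham to between 1.46% and 1.67% after VSG, and Cyp2c70 (light blue) takes 54.9% in VSG 4 but 6.88% in sham 2.

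The make-up of the family differed from mouse to mouse. Per kilobase, Cyp2c70 took 28.9%, 6.88% and 15.6% of the Cyp2c level in sham and 54.9%, 19% and 26.1% after VSG. By the deposited exon length, Cyp2c70 had the highest level of all members in 4 libraries, sham 1 and the 3 VSG libraries. Cyp2c29 was in the top place in sham 2 and Cyp2c50 in sham 3. That length merges all exons of a gene, with 3061 bases for Cyp2c29, 2918 for Cyp2c50 and 1981 for Cyp2c70. Their coding transcripts used for the sequence comparison had 1783, 1812 and 1717 bases. Ranks and shares between genes therefore depend on the length used. Cyp2c38 took 7.36%, 5.77% and 9.95% in sham and 1.46%, 1.59% and 1.67% after VSG, a drop in share that did not depend on which VSG library was read. Counts of Cyp2c70 per count of Cyp2c38 were 2.71, 0.823 and 1.08 in sham and 25.9, 8.27 and 10.8 after VSG. That ratio does not depend on the scaling between libraries, and the gap between its groups follows from the levels of the 2 genes given above, so that it adds no evidence to them.

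In order of mean FPKM in sham, Cyp2c29 came at the top with 119, followed by Cyp2c50 with 110, Cyp2c37 with 105, Cyp2c70 with 90.5, Cyp2c44 with 53.5, Cyp2c38 with 47.5, Cyp2c54 with 34.6 and Cyp2c39 with 4.41. The upper ranks were set by sham 2, where Cyp2c29, Cyp2c37 and Cyp2c50 reached 256, 236 and 229 FPKM, and the ranges of genes next to each other in this order overlapped throughout. After VSG the order of the means was Cyp2c70 with 153, Cyp2c50 with 83.1, Cyp2c44 with 74.6, Cyp2c54 with 51.3, Cyp2c29 with 49.4, Cyp2c37 with 48.3, Cyp2c38 with 8.58 and Cyp2c39 with 0.861 FPKM. In that order the ranges of Cyp2c70 and Cyp2c50 did not overlap, nor did those of Cyp2c37, Cyp2c38 and Cyp2c39, while Cyp2c50 down to Cyp2c37 overlapped. Both orders use the deposited exon lengths, and the gap between Cyp2c70 and Cyp2c50 depends on that choice. Cyp2c39 was below Cyp2c38 in all 6 libraries.

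Of 8 tested genes that supply P450 enzymes with electrons or haem, 2 fell and 0 rose, with a median log2 fold change of -0.76. Cyb5r3, a reductase of cytochrome b5, fell (-1.23, adjusted p 0.0130), as did Pgrmc1, a haem-binding partner of P450 enzymes (-0.76, adjusted p 0.0437), both in edgeR. Alas1, which starts haem synthesis, was at 382, 1592 and 699 CPM in sham and 109, 214 and 274 CPM after VSG, without overlap, and missed the threshold in edgeR (-2.16, adjusted p 0.0513), while DESeq2 (adjusted p 0.000493) and 4 other alternatives of 13 called it. Por, the oxidoreductase itself, did not pass (-0.76, adjusted p 0.115). The Cyb5r3 call held in 11 of 13 alternatives (adjusted p up to 0.0719, without sham 3) and the Pgrmc1 call in 8 (up to 0.143, without sham 3).

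Among 16 nuclear receptors and hepatocyte transcription factors tested, 2 rose and 1 fell, with a median log2 fold change of 0.14. The one that fell was Nr1i2, the xenobiotic receptor PXR, with 72.9, 116 and 105 CPM in sham and 47.3, 61.5 and 50.9 CPM after VSG (-0.88, SE 0.195, adjusted p 0.0322 in edgeR). Foxa3 (0.67, adjusted p 0.0230) and Onecut1 (2.40, adjusted p 0.0341), both factors of hepatocyte identity, rose. The calls of Nr1i2 and Foxa3 held in 9 of 13 alternatives (adjusted p up to 0.125 and 0.112, both without sham 3) and that of Onecut1 in 6 of 13 (up to 0.134, also without sham 3). VSG 6 had 6.54 CPM of Onecut1 against 24.8 and 26.7 CPM in VSG 4 and VSG 5. Hnf4a and Cebpa, whose motifs were searched in the promoters, did not pass (0.37, adjusted p 0.194, and 0.18, adjusted p 0.480).

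Of 12 genes of growth hormone signalling and sex-dependent regulation, 1 rose, the oestrogen receptor Esr1 (0.97, adjusted p 0.0141 in edgeR, lost without VSG 6 at 0.0569), and 0 fell. Stat5b, which relays growth hormone to sex-dependent Cyp genes, did not pass (-0.09, adjusted p 0.508), nor did Cux2, a factor of the female pattern that was at 0.868 CPM or less in every library (-0.31, adjusted p 0.611). The growth hormone response genes Socs2 (2.03, adjusted p 0.0540) and Cish (2.22, adjusted p 0.0735) had higher values in VSG 4 and VSG 5 and also missed the threshold. VSG 6 lay within the sham range for both, with 5.58 CPM of Socs2 and 5.25 CPM of Cish. Of 17 genes known for higher levels in female liver, 9 were tested, and 6 of them fell. Their summed level was 241 to 651 CPM in sham and 58.4 to 197 CPM after VSG. Cyp17a1, which was not called (0.72, adjusted p 0.453), gave 175, 36.9 and 61.6 CPM of the sum in VSG 4, 5 and 6. Cyp2b13 was listed at 2.55, 21.4 and 19.4 CPM in sham and had 0 counts in all 3 VSG libraries, and Cyp2a4 was at 63.5, 12.2 and 16.4 CPM in sham and had at most 3 counts in a VSG library. The Cyp2b13 call held in 8 of 12 alternatives (adjusted p up to 0.102, without sham 3) and the Cyp2a4 call in 10 of 12 (up to 0.0604, with limma-voom). Of 13 genes known for higher levels in male liver, 1 rose (C6, 1.93, adjusted p 0.0134 in edgeR, lost without sham 3 at 0.0568 and without VSG 6 at 0.0614) and 0 fell. Their log2 fold changes ran from -1.28 to 6.62, with a median of 0.76. Hsd3b5 had the highest value and missed the threshold (adjusted p 0.0539), with 0.0905, 38.6 and 35.3 CPM after VSG. Slco1a1 was at 2.70, 54.7 and 2.28 CPM in sham and 6.24, 197 and 162 CPM after VSG (2.63, adjusted p 0.266). It was high in sham 2, VSG 5 and VSG 6, as was Cyp2c54, and a link was not tested.

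Of 13 tested genes that act beside the Cyp2c enzymes on arachidonic acid or its epoxides, 2 fell and 0 rose, with a median log2 fold change of -0.23. Ephx1, the microsomal epoxide hydrolase, fell from 539, 517 and 567 CPM to 184, 256 and 210 CPM (-1.32, SE 0.160, adjusted p 0.00809 in edgeR). Cyp2j6, an epoxygenase of another P450 subfamily, fell as well (-0.62, adjusted p 0.0473). Its call held in only 6 of 13 alternatives. It was lost in every fit that left out a library (adjusted p 0.0517 to 0.136), where the log2 fold change was -0.81 to -0.51. The Ephx1 call was lost without sham 3 (adjusted p 0.0519) and without VSG 6 (adjusted p 0.0542). Ephx2, the soluble hydrolase that opens the epoxides made by Cyp2c enzymes, did not pass (-0.54, adjusted p 0.337).

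Inflammatory and neutrophil transcripts moved with the operation in the same libraries. All 15 tested acute phase genes rose (median log2 fold change 2.54), among them Saa2 (6.54, adjusted p 0.00809) and Saa1 (5.87, adjusted p 0.00783), the serum amyloids, whose calls were lost without sham 3 (adjusted p 0.0556 and 0.0549), and their summed level was 13078 to 15409 CPM in sham and 111175, 42046 and 92600 CPM in VSG 4, 5 and 6. All 10 neutrophil markers rose (median 6.98), from a summed 2.74 to 14.7 CPM to 1836, 151 and 845 CPM, and the defining markers Mpo and Ly6g had 0 counts in sham 2. Of 8 macrophage markers 4 rose, the Kupffer cell genes Clec4f, Vsig4, Timd4 and Marco, and 0 fell (summed 345 to 730 CPM against 742 to 2165 CPM). VSG 4 had the highest acute phase and neutrophil level and the lowest level of Cyp2c29, Cyp2c37, Cyp2c38, Cyp2c39, Cyp2c44, Cyp2c50 and Cyp2c54 among the VSG libraries, but not of Cyp2c70. VSG 6, whose acute phase level was above that of VSG 5, had higher levels than VSG 5 of Cyp2c37, Cyp2c39 and Cyp2c70 and lower levels of Cyp2c29, Cyp2c44 and Cyp2c54. Cyp2c38 (30.5 and 30.7 CPM) and Cyp2c50 (327 and 342 CPM) were nearly level in VSG 5 and VSG 6. Cyp2c39 was nearly level in VSG 4 and VSG 5 (1.27 and 1.33 CPM). Each library is 1 mouse, and these orders were not tested. The part of these transcripts in the fall of Cyp2c38 and Cyp2c39 was not tested.

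Of 10 hepatocyte markers 0 were called (median log2 fold change -0.07), with a summed level of 89748 to 131810 CPM in sham and 106046 to 134986 CPM after VSG. The members of that list differed in direction, since Apoa2 (-0.84), Ttr (-0.83) and Ass1 (-0.61) were lower in every VSG library than in any sham library and Serpina1a (0.68) was higher. The summed level of 8 stellate cell markers did not overlap between the groups, with 732 to 1099 CPM in sham and 399 to 690 CPM after VSG. All 8 had a log2 fold change below 0 (median -1.11), and 1 of them fell (Reln, -1.27, adjusted p 0.0328 in edgeR). The part of stellate cell transcripts in the fall of Cyp2c38 and Cyp2c39 was not tested. Of 5 tested bile duct markers 1 rose (Sox9, 1.77, adjusted p 0.0359), while Krt7, Krt19, Epcam and Spp1 had values below 0 and did not pass. Of 8 sinusoidal endothelial and 8 lymphocyte markers 0 were called. Reads of the mitochondrial genome made up 5.59% to 6.58% of counts in sham and 4.14% to 5.01% after VSG.

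**Figure D5:**
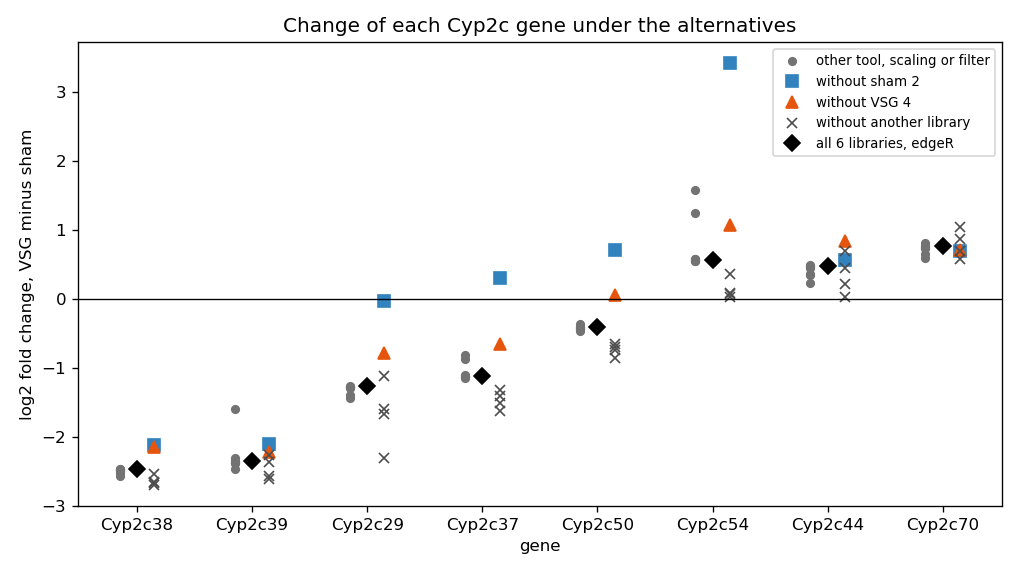
Log2 fold change of VSG minus sham for the 8 tested members with all 6 libraries (black diamond), with other tools, scalings or filters (grey points) and with 1 library left out (blue square without sham 2, orange triangle without VSG 4, crosses without another library). Cyp2c37 and Cyp2c50 change sign, Cyp2c54 ranges from 0.02 to 3.41, and the points of Cyp2c38, Cyp2c39 and Cyp2c70 lie closer together.

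Other tools, scalings and filters and leaving out libraries moved the members unequally. Across 13 alternatives the log2 fold change of Cyp2c38 stayed between -2.70 and -2.12, that of Cyp2c39 between -2.62 and -1.60 and that of Cyp2c70 between 0.58 and 1.04. Cyp2c29 ran from -2.31 to -0.03, Cyp2c37 from -1.62 to 0.30, Cyp2c50 from -0.86 to 0.70 and Cyp2c54 from 0.02 to 3.41. Cyp2c44 ran from 0.03 to 0.84. Of the 8 tested members, Cyp2c37 and Cyp2c50 changed sign in a fit and the others did not, and the number of members called ranged from 0, without sham 3, to 3.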

How the data were processed

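The deposited files hold raw read counts for each gene in 6 liver libraries, each from 1 mouse. Per the labels and the study's methods, the authors made strand-specific poly(A) libraries, aligned reads with STAR 2.6.0 to mm10 and counted them with featureCounts after FastQC 0.10.1. The version of featureCounts is 2.0.3 in the submitters' processing notes, and the study's methods give another version. Which annotation release was used, whether strand was counted and how reads fitting several genes were handled are not given in the sources used here, so near-identical copies were also summed. The deposited table gave an exon length per gene, which entered FPKM only.

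Of 55385 identifiers, 54487 equalled those of GENCODE M21 in version, start and end, 55144 matched without the version and 241 did not match. Cyp2c44 was matched to Cyp2c23 through the RefSeq synonyms, and Cyp2c40 without its version. Coding identity and shared windows came from the transcripts of that annotation, and promoters from RefSeq (GRCm38.p6), where 8 of 10 members had an entry.

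The test was edgeR's quasi-likelihood test (version 4.0.16, R 4.3.3; filterByExpr with minimum count 10 and minimum total 15, TMM, glmQLFit and glmQLFTest with group as the only term, Benjamini-Hochberg over 14454 genes). Intervals are 95% intervals of the fit. The main test differs from the authors' tool, DESeq2, which was run as an alternative (version 1.42.0), with limma 3.58.1 (voom, and log2(FPKM + 1) with genes above a mean of 0.1 FPKM), RLE and total-count scaling, no filter, at least 10 counts in every library, and each library left out. The scripts were tested on simulated counts.

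Total counts were 22804397 to 24191778 per library. The floor of 3 counts is 0.124 to 0.132 CPM of the raw totals and covers counting error only. Replicates differed by more than counting noise (chi-square per degree of freedom at least 27.5). The members and the gene lists were chosen with earlier results of these data known. Named genes were all members, the other Cyp2c genes, per list the 2 called genes with the largest rise and the 2 with the largest fall, and 14 regulators and pathway genes set by name. Called marker genes of other cell types, Cyp7b1, Cyp17a1, Socs2, Cish, Axin2, Tbx3, Hsd3b5, Slco1a1 and the uncalled markers were named after their values were seen. No amino acid sequences were used here.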

Additional observations from a re-analysis of the deposited data

How the results depend on the processing

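No paired analysis was possible because the sample numbers 1 to 3 and 4 to 6 are not shared between the groups. Of the members, 2 were called with all libraries, 0 without sham 3 and 1 without VSG 6, and over the leave-one-out fits the number ran from 0 to 3, the calls as lower from 0 to 2 and those as higher from 0 to 1. DESeq2 called 1 member as higher (Cyp2c70). Over all tested genes 2118 were called, 3270 with DESeq2 and 159 to 2732 when a library was left out, the lowest without sham 3. Of the calls 46.3% were higher after VSG, against 24.3% with total counts, which moved the median log2 fold change of all genes from 0.03 to -0.11, and 22.9% with limma on log2(FPKM + 1).

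The sum of Cyp2c40, Cyp2c67, Cyp2c68 and Cyp2c69 passed with total counts (-0.87, adjusted p 0.0430), and ran from -1.01 to -0.50 over the leave-one-out fits. The sum of Cyp2c37, Cyp2c50 and Cyp2c54 ran from -0.93 to 0.88, turning to 0.88 without sham 2 and 0.03 without VSG 4. The sum of Cyp2c29, Cyp2c38 and Cyp2c39 ran from -2.40 to -0.59, and that of all Cyp2c genes from -0.69 to 0.29, turning to 0.29 without sham 2. Without sham 2 the log2 fold change turned to 0.30 for Cyp2c37, 0.70 for Cyp2c50 and 0.33 for Cyp2e1, and without VSG 4 to 0.06 for Cyp2c50 and 0.18 for Cyp2e1, within ranges of -1.62 to 0.30 for Cyp2c37, -0.86 to 0.70 for Cyp2c50 and -0.44 to 0.33 for Cyp2e1. The cause was not tested. With 3 mice a group, the intervals of Cyp2c29, Cyp2c37, Cyp2c50 and Cyp2c54 are wide, and an adjusted p above the threshold does not show that these genes did not differ.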
